A study of Mus musculus with 6 samples.

Results

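The 34 interferon-stimulated genes described here were chosen by gene symbol from a list of classical interferon targets and their regulators, with no threshold on expression, out of 55487 genes in the expression table. Each of the 34 symbols had 1 gene identifier, and all 34 had enough reads to be tested. They were measured by RNA sequencing of mouse aorta in 6 libraries. The 3 titled SM22-∆Ogt carry the genotype label of a smooth-muscle-specific Ogt knockout, and the 3 titled SM22-Ctrl carry the genotype label LoxP, the floxed and undeleted Ogt allele. The product of Ogt, O-GlcNAc transferase, adds single N-acetylglucosamine sugars to proteins of the nucleus and cytoplasm. SM22 is another name for transgelin, a protein of contractile smooth muscle cells whose promoter is widely used to drive Cre recombinase. The sources used here do not give the Cre line, age, sex, strain or number of mice per library. The p-values therefore rest on library-to-library spread, which may be partly technical.

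Type I interferons bind the receptor IFNAR1/IFNAR2 and activate the kinases JAK1 and TYK2. These phosphorylate STAT proteins, among them STAT2, which joins IRF9 in the complex ISGF3. ISGF3 binds the interferon-stimulated response element (ISRE) in the promoters of genes that block viral entry, degrade viral RNA or display viral peptides. Interferon gamma acts through gamma-activated sites (GAS) and through IRF1. In the vessel wall, endothelial cells, macrophages and smooth muscle cells can all respond. Reads came from whole tissue, where fewer cells of a type and less RNA per cell cannot be told apart.

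The deposited read counts summed to between 11845644 and 18218385 per knockout library and between 3038782 and 13738958 per control library. Control replicate 2 was the shallowest library, and 10.2% of its counts were mitochondrial ribosomal RNA, against 0.491% to 0.823% in the other 5 libraries. It also stood alone on the first principal component, which held 54.4% of the variance. Ogt, the targeted gene, had 93.3, 73.5 and 70.9 CPM (read counts scaled to library size) in the knockout libraries, against 177, 183 and 150 CPM in the control libraries. It fell in the knockout with a log2 fold change of -1.10 ± 0.15 (SE, n = 3 each; edgeR quasi-likelihood test, adjusted p = 0.0214). Transcripts of the Y-linked gene Ddx3y were present in all 6 libraries, at 80.5 to 122 CPM. Those of Xist, the gene of X inactivation, were at 0.596 to 1.48 CPM.

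Of the 34 interferon-stimulated genes, 26 had a positive log2 fold change (knockout over control) and 8 a negative one. That is 76.5% positive, where 48.7% of the 16139 genes tested were positive. The median log2 fold change of the 34 was 0.26, against -0.01 over all genes, and single genes lay between -0.84 and 0.95. No member passed the edgeR test after Benjamini-Hochberg adjustment over all 16139 genes at 0.05, a threshold that 3.45% of all genes passed. At an unadjusted p under 0.05, 7 of the 34 were higher in the knockout and 2 were lower, where 11.5% and 11.3% of all genes met the same limit in each direction. DESeq2 and limma-voom each called 1 of the 34, which was Irf9 with both tools, where 10.0% of genes passed with DESeq2 and 4.73% with limma-voom. Irf9, Bst2, Ifi35, Tap2, Usp18, Ifi44, Oas2, Rsad2 and Xaf1 had every knockout library above every control library. Those are 9 of 34 genes, against 16.9% of all genes tested. In the shallow control replicate 2, Ifi44, Oas2, Rsad2, Usp18 and Xaf1 had only 2, 3, 6, 7 and 7 counts. Irf9, Bst2, Ifi35 and Tap2 had 58, 61, 62 and 112 counts there. Rtp4 was the 1 member with every knockout library below every control library, an order seen for 14.8% of all genes, and the groups overlapped for the remaining 24.

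**Figure D1:**
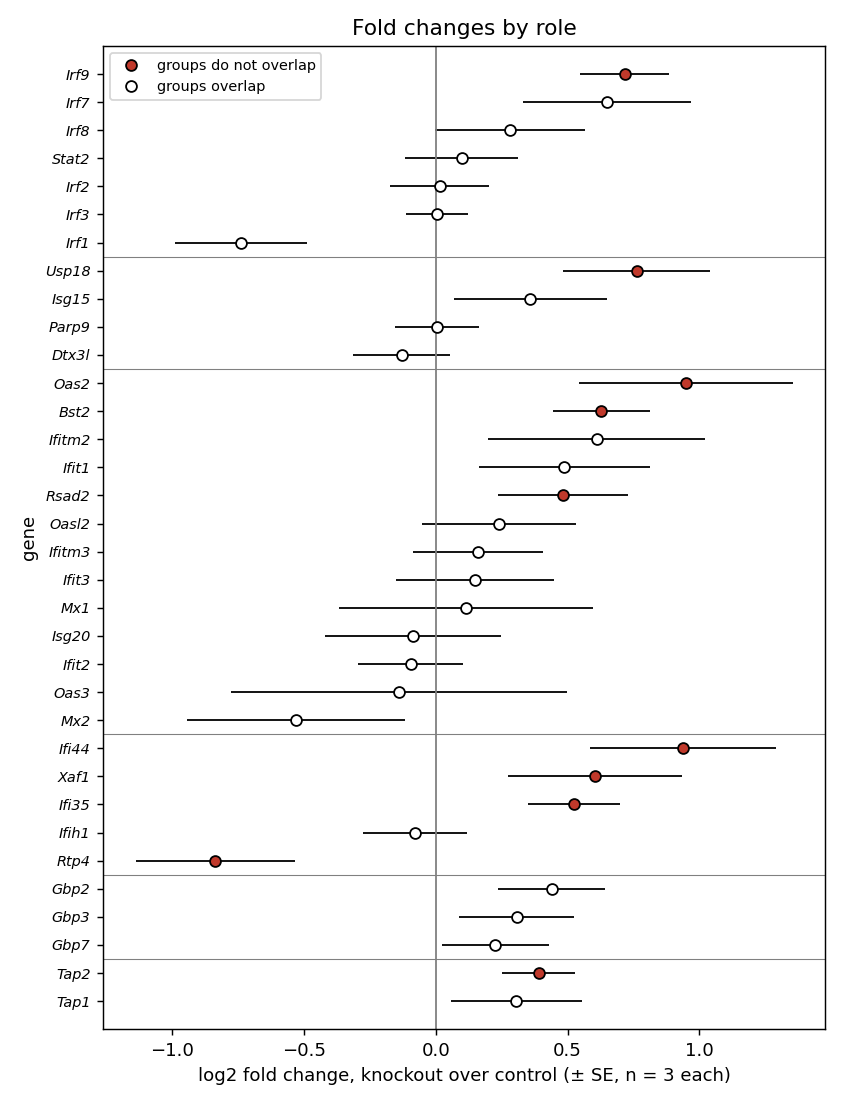
Log2 fold change (knockout over control, x axis) with its standard error for each of the 34 genes (n = 3 libraries per group), ordered by role from ISGF3 and the IRF genes at the top to the peptide transporter at the bottom, with filled points for the 10 genes whose groups do not overlap. Most points lie right of 0, Oas2 and Ifi44 lie farthest right and Rtp4 and Irf1 farthest left.

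Promoter sequences show the element through which many of these genes are known to respond. RefSeq windows running from 250 bases before to 50 bases after the annotated start (GRCm38.p6, read on the gene's strand) were found for 27 of the 34 genes. They were searched on both strands for an ISRE core, GAAANNGAAA, and for a GAS, TTCNNNGAA, which reads the same on either strand. Bst2 and Isg15 are shown because their windows hold overlapping ISRE cores (in capitals), and Irf1 because its first window holds a GAS (in capitals) and no ISRE core. The windows lie at chr8:71537423-71537722 on the minus strand for Bst2, chr4:156200769-156201068 on the minus strand for Isg15 and chr11:53769764-53770063 on the plus strand for Irf1.
Bst2: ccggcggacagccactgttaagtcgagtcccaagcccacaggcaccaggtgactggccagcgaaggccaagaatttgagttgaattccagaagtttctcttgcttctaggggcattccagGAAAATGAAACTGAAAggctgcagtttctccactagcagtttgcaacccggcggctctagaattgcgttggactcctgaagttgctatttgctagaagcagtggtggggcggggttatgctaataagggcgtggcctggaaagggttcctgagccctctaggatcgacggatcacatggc
Isg15: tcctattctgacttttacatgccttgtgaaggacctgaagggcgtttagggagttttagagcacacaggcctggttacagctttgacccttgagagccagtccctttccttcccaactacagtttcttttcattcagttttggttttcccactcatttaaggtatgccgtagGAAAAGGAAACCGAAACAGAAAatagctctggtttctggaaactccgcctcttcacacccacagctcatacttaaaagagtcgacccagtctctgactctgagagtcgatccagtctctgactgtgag
Irf1: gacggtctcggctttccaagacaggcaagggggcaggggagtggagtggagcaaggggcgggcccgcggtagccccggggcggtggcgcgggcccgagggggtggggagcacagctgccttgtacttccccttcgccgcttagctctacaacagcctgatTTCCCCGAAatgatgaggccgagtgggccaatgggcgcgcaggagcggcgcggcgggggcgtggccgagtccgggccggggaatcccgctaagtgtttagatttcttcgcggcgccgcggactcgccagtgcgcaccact
The 2 cores of Bst2 begin 130 and 124 bases before the start, and a GAS that begins 136 bases before it overlaps the first of them. Those of Isg15, 3 in number, begin 78, 72 and 66 bases before the start. The GAS of Irf1 begins 90 bases before it.

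An ISRE core was present in windows of 14 of the 27 genes (51.9%), while 3.99% of all 27025 genes with a window had one. Besides Bst2 and Isg15 these were Gbp2, Gbp3, Gbp7, Ifih1, Ifit1, Ifit3, Ifitm2, Ifitm3, Irf2, Oas3, Rsad2 and Stat2. A GAS was present for 9 of the 27 genes (33.3%) and for 9.55% of all genes. The median log2 fold change was 0.27 over the 14 genes with an ISRE core, 12 of them positive, and 0.28 over the 13 without one, 9 of them positive. It was 0.16 over the 9 genes with a GAS and 0.33 over the 18 without one. The medians with and without an ISRE core were thus nearly equal, and the windows of Irf9 held neither motif. A match is only a match of letters in this window, and a gene without one may carry an element of another spelling or outside the window. The medians therefore do not compare genes with and without a working ISRE.

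Among the regulators, Irf9, the DNA-binding subunit of ISGF3 (chromosome 14, 55603571 to 55610030, GRCm38), had 31.5, 31.9 and 25.4 CPM in the knockout libraries, against 15.6, 21.5 and 17.8 CPM in the control libraries. All 3 knockout values lay above all 3 control values. The log2 fold change of Irf9 was 0.72 ± 0.17 (SE; edgeR adjusted p = 0.0639), the smallest adjusted p among the 34 genes. Its direction was the same in all 13 alternative analyses, with log2 fold changes of 0.60 to 0.83 and adjusted p of 0.0114 to 0.242. Irf9 passed 0.05 in 4 of them: DESeq2 (adjusted p = 0.0114), limma-voom (0.0445), edgeR with no filter on low counts (0.0465) and edgeR without control replicate 2 (0.0362), where 5.51% of all genes passed. Reads in the 123 bases that its locus shares with Rnf31 on the same strand cannot be assigned to 1 gene from these counts.

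Stat2, the transactivating subunit of ISGF3, had 23.3, 29.7 and 18.5 CPM in the knockout libraries, against 18.8, 26.7 and 22.2 CPM in the control libraries. The groups overlapped, with a log2 fold change of 0.10 ± 0.21. Whether the fold changes of Irf9 and Stat2 differed from each other was not tested.

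Irf7, which amplifies type I interferon production, had 9.87, 9.0 and 4.85 CPM in the knockout libraries, against 4.74, 3.71 and 6.11 CPM in the control libraries. Knockout replicates 1 and 2 were above every control and replicate 3 lay within the control range, so that the log2 fold change of 0.65 ± 0.32 came with an adjusted p of 0.277 (edgeR). Irf8, a factor of myeloid cells and an interferon gamma target, showed the same order, with 5.96, 6.59 and 3.98 CPM in the knockout, against 3.57, 4.45 and 5.52 CPM in the control (log2 fold change 0.28 ± 0.28). A read-through transcript unit, Gm20388, covers the Irf8 locus, so its reads are uncertain. Irf3, the constitutive factor downstream of the RNA and DNA sensors, had 54.9, 49.7 and 58.3 CPM in the knockout, against 52.8, 50.8 and 58.4 CPM in the control. Irf2, an antagonist of IRF1, had 28.0, 27.1 and 23.9 CPM in the knockout, against 19.7, 30.8 and 28.7 CPM in the control. The log2 fold changes of Irf3 and Irf2 were 0.00 ± 0.12 and 0.01 ± 0.19.

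Irf1, the factor through which interferon gamma induces many targets, ran the other way. It had 12.9, 11.8 and 15.2 CPM in the knockout libraries, against 14.6, 26.7 and 26.3 CPM in the control libraries. Control replicate 1 lay within the knockout range, and the other 2 controls were well above it. The log2 fold change of Irf1 was -0.74 ± 0.25 (edgeR adjusted p = 0.141). It was the 1 regulator of the 7 with a negative fold change.

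In the ISG15 pathway, Isg15, a ubiquitin-like protein that is attached to other proteins during an interferon response, had 5.02, 4.12 and 2.78 CPM in the knockout, against 2.96, 2.97 and 3.27 CPM in the control. Knockout replicate 3 was the lowest of all 6 libraries, and the log2 fold change was 0.36 ± 0.29. Usp18, which removes ISG15 and also restrains signalling at the IFNAR2 chain, had 4.0, 4.35 and 3.44 CPM in the knockout, against 1.79, 2.60 and 2.69 CPM in the control. Its groups did not overlap, and the log2 fold change was 0.76 ± 0.28 (edgeR adjusted p = 0.163). The Parp9 protein, an ADP-ribosyltransferase family member, works as a partner of the ubiquitin ligase DTX3L. Parp9 had 20.0, 23.5 and 22.7 CPM in the knockout, against 21.6, 18.2 and 25.4 CPM in the control. Dtx3l had 22.8, 22.6 and 15.4 CPM in the knockout, against 23.2, 20.0 and 22.8 CPM in the control. Both had log2 fold changes within 1 standard error of 0, at 0.01 ± 0.16 and -0.13 ± 0.18. The pair is transcribed from opposite strands with loci that overlap by 682 bases, where reads cannot be told apart without strand.

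**Figure D2:**
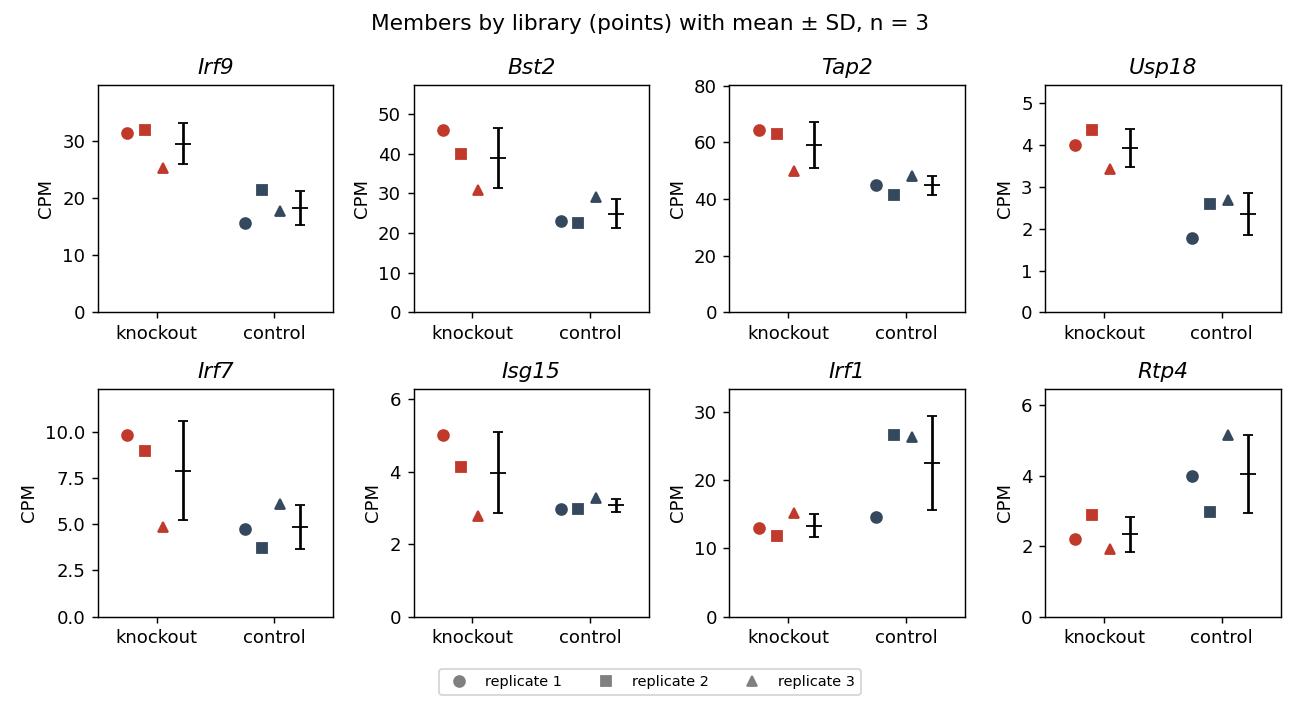
CPM per library for Irf9, Bst2, Tap2, Usp18, Irf7, Isg15, Irf1 and Rtp4, with knockout points left of control points, marker shapes for replicates 1 to 3 and black bars for the mean ± SD (n = 3 per group). Irf9, Bst2, Tap2 and Usp18 have all knockout points above all control points, Irf7 and Isg15 have knockout replicate 3 among or below the controls, Irf1 has lower knockout points that overlap with control replicate 1, and Rtp4 has all knockout points below all control points.

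The antiviral effectors were a group of 13, of which 9 had a positive fold change (69.2%, against 48.7% of all genes tested). For 3 of the 13, Bst2, Oas2 and Rsad2, every knockout library was above every control library, an order seen for 16.9% of all genes. Bst2 encodes tetherin, which holds budding virions at the cell surface. It had 45.9, 39.8 and 30.8 CPM in the knockout libraries, against 23, 22.6 and 29.1 CPM in the control libraries. Its lowest knockout library was above its highest control library, and the log2 fold change was 0.63 ± 0.18 (edgeR adjusted p = 0.104, and 0.0533 to 0.328 over the alternatives). Rsad2 encodes viperin, an enzyme that makes a chain-terminating nucleotide. It had 4.51, 4.53 and 4.25 CPM in the knockout, against 3.16, 2.22 and 3.71 CPM in the control (log2 fold change 0.48 ± 0.25).

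The oligoadenylate synthetases make the second messenger that activates RNase L. Oas2 had 6.98, 9.23 and 6.16 CPM in the knockout, against 3.78, 1.11 and 5.52 CPM in the control. Its log2 fold change of 0.95 ± 0.41 was the highest of the 34 genes, and its adjusted p was 0.218 (edgeR). The lowest Oas2 value was that of the shallow control replicate 2. Oas3 is the neighbour of Oas2 on chromosome 5, and the first positions of the loci lie 22.8 kb apart. Oas3 had 1.36, 1.0 and 0.218 CPM in the knockout, against 0.894, 0.742 and 1.02 CPM in the control. Oasl2, a related protein, had 16.8, 20.1 and 11.3 CPM in the knockout, against 13.3, 8.53 and 17.6 CPM in the control. Groups overlapped for Oas3 and Oasl2, at log2 fold changes of -0.14 ± 0.64 and 0.24 ± 0.29.

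The IFIT proteins bind foreign RNA, and their 3 genes lie together on chromosome 19 between 34550694 and 34650009. Ifit1 had 8.0, 8.0 and 4.96 CPM in the knockout, against 5.22, 2.60 and 6.18 CPM in the control. Ifit2 had 17.3, 19.7 and 23.6 CPM in the knockout, against 26.3, 16.7 and 20.8 CPM in the control. Ifit3 had 22, 23.1 and 16.8 CPM in the knockout, against 21.2, 9.27 and 23.3 CPM in the control. The 3 genes did not share 1 order of libraries: knockout replicate 3 was the highest knockout library for Ifit2 and the lowest for Ifit1 and Ifit3. Their log2 fold changes were 0.49 ± 0.32, -0.10 ± 0.20 and 0.15 ± 0.30.

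The IFITM proteins restrict viral entry at membranes, and their genes had the highest levels per transcript length of the 34. Ifitm2 stood at 195 RPKM (CPM per kilobase of transcript) in the knockout and 127 RPKM in the control, and Ifitm3 at 132 RPKM in the knockout and 117 RPKM in the control. In CPM, Ifitm2 had 164, 153 and 67.0 in the knockout libraries, against 123, 69.0 and 57.6 in the control libraries. Knockout replicate 3 was below control replicates 1 and 2, and the log2 fold change was 0.61 ± 0.41. A predicted protein-coding unit on the same strand, Gm45717, covers most of the Ifitm2 locus, so its reads may be split. Ifitm3 had 96.1, 98.4 and 74.9 CPM in the knockout, against 89.5, 50.1 and 99.2 CPM in the control (log2 fold change 0.16 ± 0.25).

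The Mx GTPases, which trap viral ribonucleoproteins, and the exonuclease gene Isg20 were low. Mx1 had 1.28, 1.0 and 0.654 CPM in the knockout, against 0.756, 0.371 and 1.24 CPM in the control. Mx2 had 1.19, 2.29 and 1.69 CPM in the knockout, against 1.86, 4.08 and 2.25 CPM in the control. The table annotates both Mx genes as polymorphic pseudogenes, since many laboratory strains carry disrupted copies. Isg20 had 5.44, 6.47 and 3.27 CPM in the knockout, against 5.36, 3.34 and 6.69 CPM in the control. Groups overlapped for all 3 genes, with log2 fold changes of 0.11 ± 0.48 for Mx1, -0.53 ± 0.41 for Mx2 and -0.09 ± 0.33 for Isg20. Mx1 and Oas3 each had fewer than 100 counts over all 6 libraries, which leaves their fold changes imprecise.

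The 5 RNA sensor and other induced genes included 4 of the 10 members with separated groups, 3 higher in the knockout and 1 lower. Over all genes tested, 16.9% and 14.8% had groups separated in these directions. Ifi35, a protein that binds the Nmi adaptor, had 47.6, 45.8 and 37.4 CPM in the knockout, against 33.3, 23 and 33.1 CPM in the control (log2 fold change 0.53 ± 0.17, edgeR adjusted p = 0.134). Ifi44 had 1.79, 2.18 and 1.69 CPM in the knockout, against 0.825, 0.742 and 1.24 CPM in the control (log2 fold change 0.94 ± 0.35, edgeR adjusted p = 0.171). Xaf1, named for binding the apoptosis inhibitor XIAP, had 9.36, 11.1 and 8.72 CPM in the knockout, against 8.32, 2.60 and 6.91 CPM in the control (log2 fold change 0.60 ± 0.33, edgeR adjusted p = 0.324). Control replicate 2 was the lowest library for all 3 genes, and for Xaf1 the nearest values, 8.72 in knockout replicate 3 and 8.32 in control replicate 1, were close.

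Rtp4, a chaperone that helps receptors reach the cell surface and is induced by type I interferon, had 2.21, 2.88 and 1.91 CPM in the knockout, against 3.99, 2.97 and 5.16 CPM in the control. It was the member with the lowest log2 fold change, -0.84 ± 0.30 (edgeR adjusted p = 0.158), and its nearest values, 2.88 in knockout replicate 2 and 2.97 in control replicate 2, were almost equal. Ifih1 encodes MDA5, a sensor of long double-stranded RNA. Ifih1 had 11, 10.9 and 7.85 CPM in the knockout, against 9.42, 10.4 and 11.6 CPM in the control, with overlapping groups (log2 fold change -0.08 ± 0.20).

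The guanylate-binding proteins are large GTPases, typical of the interferon gamma response, that attack vacuoles of intracellular pathogens. Gbp7, Gbp3 and Gbp2 lie in this order on chromosome 3 between 142530342 and 142638008. Gbp2 had 47.4, 39.9 and 29.2 CPM in the knockout, against 28.6, 23.7 and 32.5 CPM in the control. Gbp3 had 20.8, 22.8 and 14.0 CPM in the knockout, against 13.4, 15.2 and 17.7 CPM in the control. Gbp7 had 26.4, 24.9 and 16.1 CPM in the knockout, against 18.7, 18.5 and 20.1 CPM in the control. For each of the 3, knockout replicates 1 and 2 were above all controls and replicate 3 was not. Their log2 fold changes were 0.44 ± 0.20, 0.31 ± 0.22 and 0.23 ± 0.20, and none passed the edgeR test, with a lowest adjusted p of 0.251. Paralogs of this family share sequence, so reads may be split among them.

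Tap1 and Tap2 encode the subunits of the transporter that loads peptides for class I presentation, and lie on chromosome 17 between 34187553 and 34216321. Tap2 had 64.2, 63.1 and 49.9 CPM in the knockout, against 44.9, 41.5 and 48.3 CPM in the control. The groups did not overlap, with a log2 fold change of 0.39 ± 0.14 (edgeR adjusted p = 0.153). Tap1 had 22.2, 15.9 and 13.9 CPM in the knockout, against 12.2, 18.9 and 12.1 CPM in the control, and overlapped (log2 fold change 0.31 ± 0.25).

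The libraries within a group also differed from each other in these genes. Per library, the median deviation of the 34 genes from their own mean over the 6 libraries was 0.31, 0.30 and -0.16 on the log2 CPM scale in knockout replicates 1, 2 and 3, against -0.14, -0.28 and 0.09 in control replicates 1, 2 and 3. Over all genes these medians lay between -0.02 and 0.02. Knockout replicates 1 and 2 were each the highest of the 6 libraries for 11 of the 34 genes, and knockout replicate 3 for 0 of them, where these libraries were the highest for 18.9%, 11.4% and 11.8% of all genes. Knockout replicate 3 was the lowest knockout library for 29 of the 34 genes (85.3%), where it was so for 35.5% of all genes. Control replicate 2 was the lowest of the 6 for 16 genes (47.1%), where it was so for 32.6% of all genes.

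For 8 of the 34 genes (23.5%), knockout replicates 1 and 2 were above every control and replicate 3 was not, an order held by 5.73% of all genes. They were Isg15, Ifit1, Ifitm2, Irf7, Irf8, Gbp2, Gbp3 and Gbp7. Without knockout replicate 3 the median log2 fold change of the 34 was 0.45 and 11 genes had an unadjusted p under 0.05. Without knockout replicate 1 the median was 0.15 with 2 such genes, and without knockout replicate 2 it was 0.14 with 3. The share of all genes at that limit was not worked out with libraries left out. These counts therefore do not tell a change in the 34 genes from a change over all genes. Leaving out control replicates 1, 2 and 3 in turn gave medians of 0.21, 0.25 and 0.41.

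**Figure D3:**
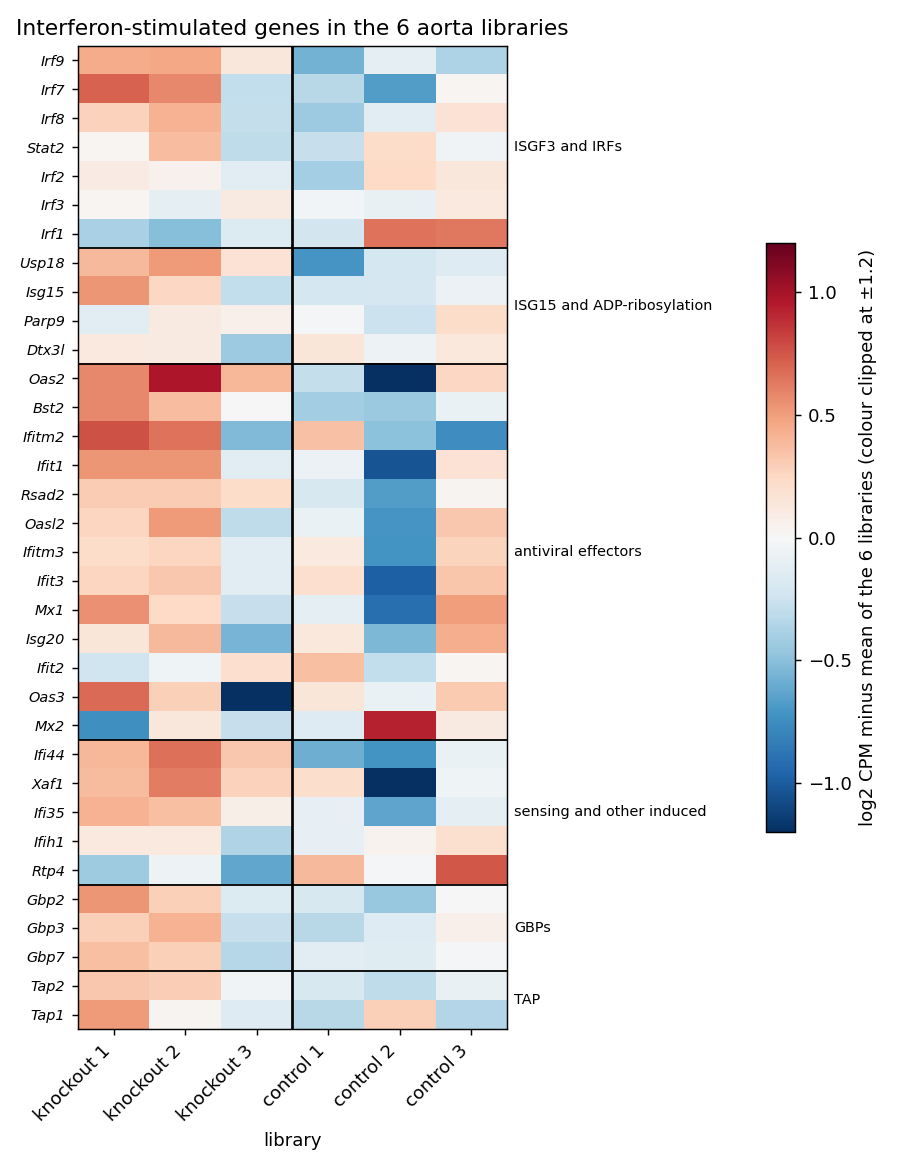
Log2 CPM of each of the 34 genes minus its mean over the 6 libraries (colour, clipped at ±1.2), with genes in rows by role and libraries in columns, the 3 knockout libraries left of the 3 control libraries. Knockout replicates 1 and 2 are mostly red (above the mean), and knockout replicate 3 is mostly near or below the mean, as the medians of 0.31, 0.30 and -0.16 give.

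Endothelial marker genes also had knockout replicate 3 as the lowest knockout library, for 9 of 10 genes. The CPM of the 10 markers listed (Pecam1, Cdh5, Kdr, Tek, Tie1, Vwf, Cldn5, Emcn, Egfl7 and Nos3) summed to 1752, 1770 and 750 in the knockout libraries, against 895, 1066 and 1029 in the control libraries. None of the 10 was at 0, and for 8 of the 10 knockout replicates 1 and 2 were above every control while replicate 3 was not. Pecam1, an adhesion molecule of endothelial junctions, had 708, 718 and 307 CPM in the knockout, against 338, 342 and 405 CPM in the control (log2 fold change 0.67 ± 0.31, edgeR adjusted p = 0.249). Tie1, an endothelial receptor kinase, had 117, 113 and 49.7 CPM in the knockout, against 58.2, 54.1 and 72.3 CPM in the control (edgeR adjusted p = 0.322). The part of the endothelial share in the interferon-stimulated genes was not tested.

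The 12 macrophage markers summed to 513, 537 and 437 CPM in the knockout libraries, against 352, 212 and 646 CPM in the control libraries. None was at 0, and none was called by edgeR, where 3.45% of all genes were called. The median log2 fold change was 0.27, with 11 of 12 positive (91.7%, against 48.7% of all genes tested). Cd14 and Cd68 had the smallest p, at log2 fold changes of 0.49 and 0.42 and adjusted p of 0.299 and 0.501 (edgeR). The 8 smooth muscle markers summed to 22167, 22363 and 26148 CPM in the knockout, against 29719, 25575 and 24384 CPM in the control, so the labelled tissue carried its contractile genes in every library. No gene of these or the other marker lists was called by edgeR, against 3.45% of all genes. The 11 T and NK cell markers summed to 7.57, 4.0 and 4.09 CPM in the knockout, against 1.92, 1.48 and 1.67 CPM in the control, with no gene high enough to be tested. Dendritic cell markers, 7 in number, summed to 31.6, 30.4 and 21.0 CPM in the knockout, against 29.3, 42.6 and 26.1 CPM in the control. Zbtb46 alone made up 24.4, 25.9 and 18.2 CPM of these sums in the knockout, against 26.6, 42.6 and 23.4 CPM in the control, with a negative log2 fold change of -0.40 ± 0.25. The summed CPM of the 6 B and plasma cell markers stayed between 1.53 and 2.59 in the knockout, against 0.742 to 4.40 in the control, and that of the 6 neutrophil markers, with Ly6g at 0, between 1.96 and 5.18 in the knockout, against 1.72 to 6.67 in the control. Fibroblast markers (7 genes) summed to 4727 to 4940 CPM in the knockout, against 4685 to 6900 CPM in the control, and red blood cell genes (5 genes) to 191 to 982 CPM in the knockout, against 323 to 970 CPM in the control. The genes with the smallest p were Synpo2 and Des for smooth muscle (log2 fold changes -0.61 and 0.61), Pdgfra and Col1a2 for fibroblasts (-0.41 and -0.43), Siglech and Itgax for dendritic cells (1.27 and 1.45), Alas2 and Hba-a2 for red blood cells (-0.76 and -0.69), Jchain for plasma cells (0.34) and Csf3r for neutrophils (0.30). The lowest edgeR adjusted p among them was 0.119, for Synpo2. DESeq2 called Synpo2 lower (adjusted p = 0.0378), and edgeR without control replicate 3 called Des higher (adjusted p = 0.0463). The part of these cells in the result was not tested.

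**Figure D4:**
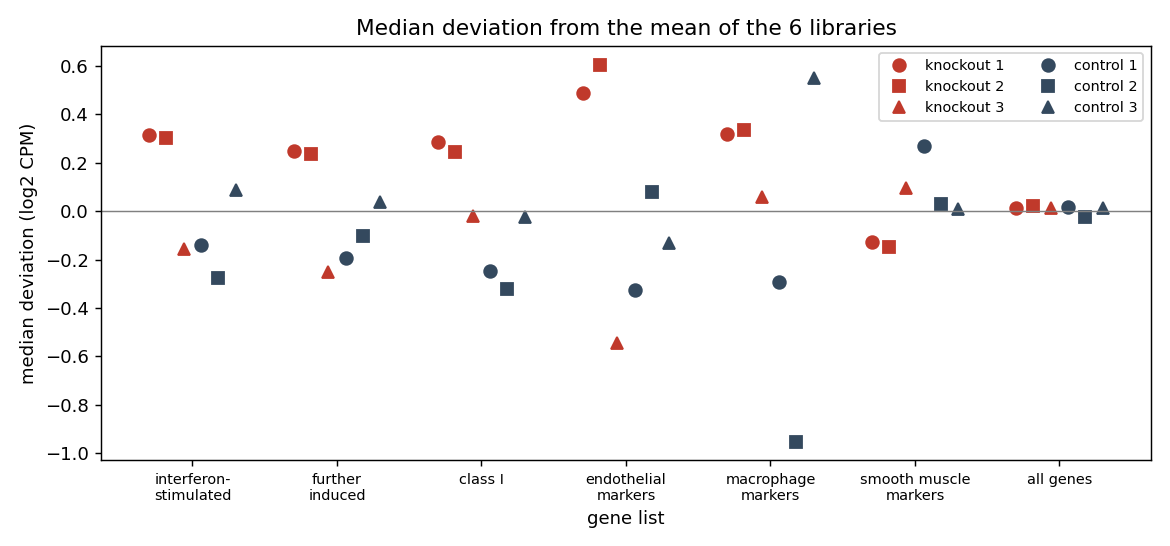
Median deviation (log2 CPM, y axis) of 6 gene lists and of all genes in each library, with knockout points in red left of control points in dark blue and marker shapes for replicates 1 to 3. In the interferon-stimulated, further induced, class I and endothelial lists, knockout replicates 1 and 2 lie above 0 and knockout replicate 3 below 0, while all genes stay near 0.

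Upstream of these genes, 6 interferon genes were looked up, with Ifna4 as the single alpha interferon. Of these, Ifna4, Ifnk, Ifng and Ifnl2 had 0 counts in all 6 libraries, Ifnb1 had 2 and Ifne 1, out of 76995312 counts. A count of 0 over that total allows a level of up to 0.0390 CPM, counting error only. Of the 20 ligand, receptor and signalling genes, 14 could be tested, and their median log2 fold change was -0.14. None was called by edgeR, where 3.45% of all genes were called.

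No receptor gene was among the 3.45% of all genes that edgeR called. Ifnar1 had 35.9, 49.6 and 49.4 CPM in the knockout, against 35.0, 46.7 and 37.8 CPM in the control, with a log2 fold change of 0.19 ± 0.17. Ifnar2, the signalling chain bound by USP18, had 32.3, 30.2 and 32.6 CPM in the knockout, against 27.4, 21.1 and 26.3 CPM in the control, without overlap (log2 fold change 0.33 ± 0.14, edgeR adjusted p = 0.208). The interferon gamma receptor genes Ifngr1 and Ifngr2 overlapped between groups, with log2 fold changes of -0.15 and -0.12. Ifnlr1, the interferon lambda receptor chain, ran the other way from Ifnar2. It had 3.32, 3.24 and 3.54 CPM in the knockout, against 5.09, 5.56 and 3.71 CPM in the control, without overlap (log2 fold change -0.48 ± 0.24, edgeR adjusted p = 0.295). Il10rb, the chain that pairs with it, overlapped between groups (log2 fold change 0.23 ± 0.20). Of the receptor kinases, Jak1 had 99.8, 109 and 101 CPM in the knockout, against 111, 108 and 118 CPM in the control (log2 fold change -0.12, edgeR adjusted p = 0.543). Jak2, which serves the interferon gamma receptor, overlapped as well (log2 fold change -0.15 ± 0.19). Tyk2 had 46.5, 46.3 and 45.3 CPM in the knockout, against 48.9, 60.4 and 55.5 CPM in the control, also without overlap (log2 fold change -0.25 ± 0.12, edgeR adjusted p = 0.258). Ptpn2, a phosphatase that dampens JAK and STAT signalling, had 28.3, 28.6 and 33.3 CPM in the knockout, against 22.7, 27.1 and 23.8 CPM in the control (log2 fold change 0.31, edgeR adjusted p = 0.231).

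Among 18 nucleic acid sensors and adaptors, edgeR called 1 higher and 0 lower, where 3.45% of all genes were called. At an unadjusted p under 0.05, 2 were higher and 2 lower, where 11.5% and 11.3% of all genes met that limit (edgeR). The median log2 fold change of the 18 was 0.17. The gene called higher was Samhd1, a nucleotide hydrolase that limits retroviral replication and interferon production. Samhd1 had 180, 175 and 156 CPM in the knockout libraries, against 69.4, 47.1 and 97.3 CPM in the control libraries, averaging 171 ± 12.8 CPM in the knockout and 71.3 ± 25.1 CPM in the control (SD, n = 3 each). Its log2 fold change was 1.24 ± 0.24 (edgeR adjusted p = 0.0430), and it had 3 knockout libraries well above the highest control. The call was lost without knockout replicate 1, 2 or 3 (edgeR adjusted p = 0.188, 0.165 and 0.0926), without control replicate 1 (0.144) and with the replicate number as a block (0.0910), although leaving out single libraries kept the log2 fold change of Samhd1 at 1.04 to 1.53.

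Mavs, the mitochondrial adaptor of the RNA sensors, did not pass but had separated groups in the other direction. It had 31.9, 30.2 and 36.1 CPM in the knockout, against 46.8, 53.4 and 47.1 CPM in the control (log2 fold change -0.58 ± 0.12, edgeR adjusted p = 0.0517). DESeq2 and limma-voom both called Mavs lower, with adjusted p of 0.00915 and 0.0468. So did edgeR with a filter of 1 CPM in 3 libraries (adjusted p = 0.0492). Over the 13 alternatives the adjusted p of Mavs ran from 0.00915 (DESeq2) to 0.228 (edgeR with 1 library left out). Eif2ak2, the RNA-activated kinase PKR and itself an interferon target, had 36.2, 39.9 and 38.6 CPM in the knockout, against 30.1, 28.9 and 31.7 CPM in the control (log2 fold change 0.33 ± 0.11, edgeR adjusted p = 0.138).

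**Figure D5:**
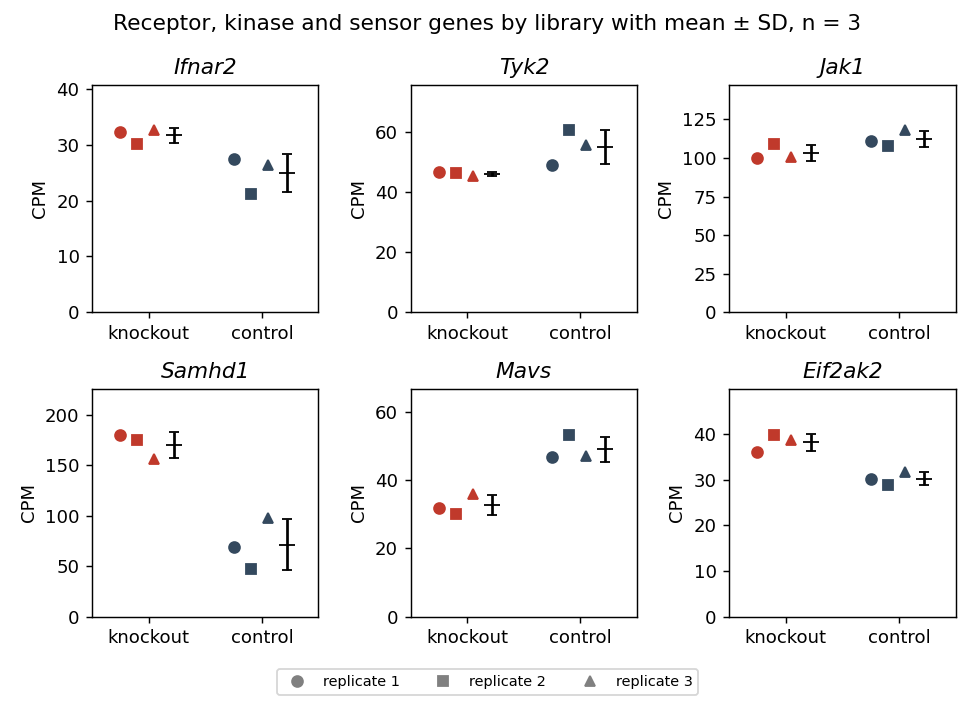
CPM per library for Ifnar2, Tyk2, Jak1, Samhd1, Mavs and Eif2ak2, with knockout points left of control points, marker shapes for replicates 1 to 3 and black bars for the mean ± SD (n = 3 per group). Samhd1 averages 171 CPM in the knockout and 71.3 CPM in the control, and Mavs 32.7 CPM in the knockout and 49.1 CPM in the control, and groups overlap for Jak1 only.

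A further list of 44 interferon-stimulated genes outside the 34 was also measured. Of 43 that could be tested, 32 had positive log2 fold changes (74.4%, against 48.7% of all genes tested), with a median of 0.16. None was called by edgeR, where 3.45% of all genes were called. Every knockout library was above every control library for 3 of the 43, an order seen for 16.9% of all genes. At an unadjusted p under 0.05, 1 gene was higher in the knockout and 0 lower, where 11.5% and 11.3% of all genes met that limit (edgeR). That gene was Ifitm1, a neighbour of Ifitm2 on chromosome 7, with 5.61, 4.53 and 3.65 CPM in the knockout, against 1.99, 0.742 and 1.6 CPM in the control. Its log2 fold change was 1.51 ± 0.34 (edgeR adjusted p = 0.0585), and DESeq2 called it with an adjusted p of 0.0123. The gene with the next smallest p, Sp100, a nuclear body protein, had 28.8, 29.6 and 16.5 CPM in the knockout, against 14.3, 19.7 and 19.2 CPM in the control (log2 fold change 0.51 ± 0.25, edgeR adjusted p = 0.282). This is again the order in which knockout replicate 3 falls among the controls.

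Genes of class I antigen presentation and the immunoproteasome, which interferons induce through IRF1 and NLRC5, had the highest share of positive fold changes of the pathway lists with more than 10 genes. Of 16 tested, 15 were positive (93.8%, against 48.7% of all genes tested), with a median log2 fold change of 0.35. None was called by edgeR, where 3.45% of all genes were called. At an unadjusted p under 0.05, 6 were higher and 0 lower, where 11.5% and 11.3% of all genes met that limit (edgeR). Every knockout library was above every control library for 3 of the 16, an order seen for 16.9% of all genes. H2-D1, a class I heavy chain, had 725, 643 and 455 CPM in the knockout, against 362, 357 and 481 CPM in the control (log2 fold change 0.60 ± 0.21, edgeR adjusted p = 0.144). B2m, the shared light chain, had 455, 452 and 411 CPM in the knockout, against 323, 252 and 374 CPM in the control, without overlap (log2 fold change 0.47 ± 0.16, edgeR adjusted p = 0.144). Reads of class I heavy chains may be split among near-identical family members.

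Of 6 further IRF and IRF2-binding genes, none was called by edgeR, where 3.45% of all genes were called. Their median log2 fold change was -0.04. Irf4, a factor of lymphoid and myeloid cells, had 3.91, 5.18 and 3.44 CPM in the knockout, against 6.74, 12.2 and 9.38 CPM in the control, without overlap (log2 fold change -1.13 ± 0.28, edgeR adjusted p = 0.0706). DESeq2 called Irf4 lower, with an adjusted p of 0.0141. Irf5, a factor of inflammatory macrophages, had 7.57, 7.76 and 9.76 CPM in the knockout, against 5.70, 4.82 and 7.56 CPM in the control, where the nearest values differed little (log2 fold change 0.44 ± 0.23). Over all 5 of these lists, 97 of 104 genes could be tested. Of the 97, 1 was called higher and 0 lower by edgeR, where 3.45% of all genes tested were called.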

How the data were processed

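The authors deposited 1 table with raw read counts and FPKM values per gene for all 6 libraries, per the file headers. Total RNA was extracted with a column kit, per the labels' protocols. CASAVA 1.8, HISAT2, SAMtools 1.3.1 and edgeR are named, per the submitters' processing notes, as is GRCm39. No source used here names the counting program or whether it used strand. Positions in the table are the same as in a GRCm38 annotation for 99.4% of shared identifiers and are given as GRCm38. Of the 34 members, 13 overlap an antisense gene, and their reads may be mixed.

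Groups came from the genotype labels and titles. The main test was edgeR 4.0.16 (quasi-likelihood, robust, TMM factors, genes kept by filterByExpr) under R 4.3.3 on the deposited counts, with Benjamini-Hochberg adjustment over 16139 genes and a threshold of 0.05. CPM used TMM-adjusted library sizes. RPKM used the length implied by the deposited counts and FPKM. Log2 CPM deviations used a prior count of 2. The fit was tested on simulated data. Alternatives used DESeq2 1.42.0, limma 3.58.1, other filters and scaling, a replicate block and each library left out. The members and lists were chosen with earlier results of these data known. Named were all 34 members, Ogt, Ifnar1, Ifnar2, Ifngr1, Ifngr2, Jak1 and Tyk2, and, of each other list, called genes and the 2 with the smallest p. Ifnlr1, Il10rb, Jak2, Eif2ak2, Trex1, Zbtb46 and Xist were added after their values were seen. A gene that the rule names is not reported here. Promoter sequences are from RefSeq (GRCm38.p6). With 3 libraries per group, precision is limited by their number, and the limit given for a count of 0 covers counting error only.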

Additional observations from a re-analysis of the deposited data

How the results depend on the processing

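The median log2 fold change of the 34 genes, 0.26, stayed positive in all 13 alternatives, between 0.14 and 0.45. Members called numbered 0 with edgeR and 1 with DESeq2, with limma-voom and with no filter on low counts (0 to 1 when single libraries were left out). Members at an unadjusted p under 0.05 numbered 9, against 5 with the replicate block and 2 to 11 when single libraries were left out. For these alternatives the share of all genes at that limit was not worked out. Of all genes, 557 were called, against 1490 with DESeq2, 28 with the replicate block and 7 to 911 when single libraries were left out. In the other pathway lists 1 gene was called, against 4 with DESeq2 and 2 with limma-voom. Of all genes tested, 3.45% were called in the main test, 10.0% with DESeq2 and 4.73% with limma-voom. Calls in these lists numbered 2 with a filter of 1 CPM in 3 libraries and 0 with the replicate block. They numbered 0 to 1 when single libraries were left out. For the filter and the block the share of all genes called was not worked out.

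Direction held in every alternative for 22 members and turned for 12. With DESeq2 the log2 fold changes were -0.0058 for Parp9 and -0.0020 for Irf3, and with limma-voom -0.026 for Parp9 and -0.0097 for Irf3. With single libraries left out the ranges were -0.21 to 0.040 for Dtx3l, -0.17 to 0.071 for Ifih1, -0.22 to 0.083 for Ifit2, -0.10 to 0.36 for Ifit3, -0.066 to 0.34 for Ifitm3, -0.18 to 0.13 for Irf2, -0.047 to 0.069 for Irf3, -0.30 to 0.16 for Isg20, -0.083 to 0.56 for Mx1, -0.58 to 0.36 for Oas3, -0.084 to 0.14 for Parp9 and -0.093 to 0.26 for Stat2. The cause was not tested.

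Same-numbered libraries had correlations of deviations of 0.05, 0.09 and -0.06, and knockout replicate 1 correlated best with control replicate 3, so the numbers were not taken as pairs. Depth limits control replicate 2, where the median count of the members was 34.5, against 194.5 to 302.5 in the other 5 libraries. Mx1 and Oas3 gave no value under the filter of 1 CPM in 3 libraries.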
